A study of Mus musculus with 40 samples.

Results

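The proteasome subunit genes are described here in layer 5 pyramidal neurons and GABAergic neurons of the young mouse forebrain, in the whole tissue, and in synaptic fractions of each. They were taken as the protein-coding genes whose mouse symbol begins Psm, followed by a letter from a to g and a digit, with at least 10 reads in at least 5 of the 40 libraries. Of 41388 genes in the count files, 54 had such a symbol, 50 of these were protein-coding and 49 had enough reads, among 14542 protein-coding genes that met the same minimum. The gene left out was Psmb11, the thymus-specific catalytic subunit, which reached 10 reads in 1 library. Just inside the minimum were Psma8, the testis alpha subunit, with 5 libraries of at least 10 reads and no more than 17 reads in any, Psme2b with 13 libraries, Psmb9 with 31 and Psmb8 with 33. The other 45 genes had at least 10 reads in all 40 libraries.

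The proteasome degrades proteins that carry ubiquitin chains. Its core is a barrel of alpha and beta rings whose proteolytic sites lie on the inner face of the beta rings, and a regulatory particle with an ATPase base and a lid recognises, unfolds and feeds in the substrate. In neurons it is known to act in axons, dendrites and at synapses, and activity alters it there, while interferon and immune cells induce alternative catalytic subunits that form the immunoproteasome.

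The 49 genes were grouped by the role of their products. The core was represented by 8 alpha-ring subunits, 4 beta-ring subunits without an active site, 3 constitutive catalytic subunits and 3 immunoproteasome catalytic subunits. The regulatory particle was represented by 6 ATPases, 11 non-ATPase subunits and 3 chaperones that assemble the base. The remaining genes were 6 alternative activators or inhibitors (Psme1, Psme2, Psme2b, Psme3, Psme4 and Psmf1), 4 chaperones that assemble the core (Psmg1, Psmg2, Psmg3 and Psmg4), and Psmc3ip, which fits the symbol pattern but encodes a meiotic recombination factor that is not a proteasome protein. Psme2b is a near-identical copy of Psme2, so reads may have been lost or divided between them and both are given with that uncertainty. The exons of 15 of the 49 genes shared bases with another gene, on the opposite strand in 12 of them. The libraries did not record strand, so reads there could not be divided between the partners by strand.

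Forebrains were taken at 21 d of age from mice carrying a Cre-dependent reporter in which ribosomal protein Rpl10a is fused to EGFP. In RBP4-TRAP mice the RBP4-cre transgene turned the reporter on in layer 5 pyramidal neurons, and in VGAT-TRAP mice Cre made from the Slc32a1 locus turned it on in GABAergic neurons, so every group carried the reporter and a Cre. Each line had 5 replicates, each a pool of forebrains of both sexes, and each replicate gave 4 samples. These were whole-cell homogenate (WCH), tagged ribosomes captured from it (TRAP), its synaptoneurosomal fraction (SNF), and tagged ribosomes captured from that fraction (ST, for SynapTRAP). There were therefore 8 groups of 5 libraries, and the tissue is called cortex in the sample records but forebrain in the study's methods, so striatal GABAergic neurons may be included.

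The 40 libraries held 14259535 to 22037703 assigned reads. After mitochondrial, ribosomal RNA and transfer RNA genes were left out, 8950847 to 21976631 reads remained, and 1 read corresponded to 0.0455 to 0.112 cpm, the unit in which each library's reads are scaled to a common total. All 7 GABAergic markers were higher in VGAT than in RBP4 TRAP libraries, while of 4 layer 5 or glutamatergic markers 3 were lower and 1 was higher. In ST, 3 of the 7 GABAergic markers were called higher in VGAT, and the library labelled RBP4 ST replicate 4 held 49.9 cpm of Slc32a1, the vesicular GABA transporter, where the other RBP4 ST libraries held 10.9 to 19.7 and the VGAT ST libraries 23.3 to 51.3. Dlx1 (9.68 cpm) and Gad2 (98.8) were also at their RBP4 ST maximum in replicate 4, while Sst (161) was at its minimum. Summed over the 7 GABAergic markers, replicate 4 had 666 cpm. This sum lay inside the RBP4 ST range of 509 to 1298 and below every VGAT ST library, of which the lowest had 1166. Glial markers were abundant in ST: the summed level of 7 oligodendrocyte markers was 32096 to 55018 cpm in ST against 414 to 5629 in TRAP, and that of 7 astrocyte markers was 3773 to 20629 against 168 to 1664.

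Levels were first compared between subunit genes within the homogenate, as cpm per kilobase of exon. In RBP4 WCH, Psmb1, a beta subunit without an active site, had the highest median of 313 (257 to 436, n = 5), followed by the ATPase Psmc5 at 250 (227 to 297), the alpha subunit Psma2 at 220 (173 to 335) and the catalytic subunit Psmb7 at 201 (156 to 329). The ranges of these 4 genes overlapped, so their order was not resolved by the replicates. Psmb1 and Psmc5 were also first and second in VGAT WCH, at 279 (259 to 392) and 249 (228 to 284).

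Subunits that occupy equal numbers of positions in the particle did not have equal RNA levels per kilobase. Among the constitutive catalytic subunits in RBP4 WCH, Psmb5 had a median of 29.7 (22.7 to 39.3) beside 141 (112 to 155) for Psmb6 and 201 for Psmb7, and the range of Psmb5 did not overlap the others. Psmd3, a lid subunit, had 4.78 (4.03 to 6.32). Psmb8 at 0.431 (0.356 to 0.676), Psmb9 at 0.357 (0.233 to 0.388) and Psma8 at 0.0735 (0.0359 to 0.387) had the lowest medians, and their ranges overlapped. Psme2b, on 14, 4, 7, 10 and 3 reads in RBP4 WCH, had a range that overlapped all of theirs, so the replicates did not resolve it from them. The kit favours the 3′ ends of transcripts, so levels per kilobase of exon understate genes with long transcripts.

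The summed level of the 49 genes differed between fractions in both lines. It was 6306 ± 857 cpm in RBP4 WCH, 8100 ± 586 in TRAP, 4248 ± 605 in SNF and 4792 ± 782 in ST (SD, n = 5 each). In the VGAT line it was 5958 ± 571, 7747 ± 352, 3793 ± 234 and 4590 ± 325 in the same order. In each line the TRAP libraries were highest, and the lowest VGAT TRAP library, at 7192 cpm, lay above the highest VGAT WCH library, at 6916. In the RBP4 line the lowest TRAP library, at 7306, lay within the WCH range of 5432 to 7530. A level in cpm is a share of the library, so in these bulk samples fewer cells of a type and less RNA per cell cannot be told apart.

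**Figure D1:**
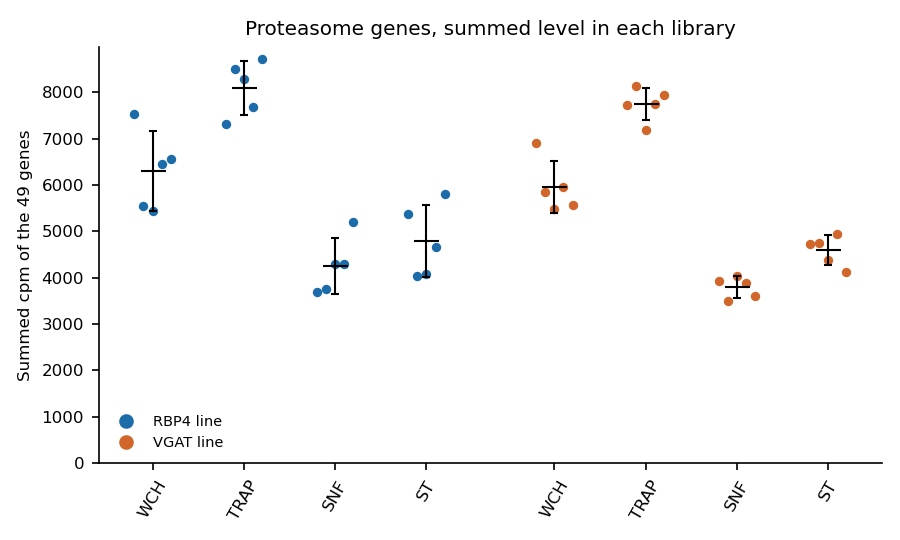
Summed level of the 49 proteasome subunit genes in each library, in cpm, by fraction for the RBP4 and VGAT lines, with each point 1 library and the mean and SD of 5 marked. TRAP libraries sit highest, up to 8717 cpm, and SNF and ST libraries lowest, down to 3493 cpm.

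The comparison of TRAP with WCH asks which transcripts are more abundant on the ribosomes of the tagged neurons than in the forebrain as a whole. In RBP4, 14 of 49 genes were higher in TRAP and 3 were lower, where 8.37% of all 17043 genes tested were higher and 31.5% were lower (quasi-likelihood F test of edgeR, adjusted by the Benjamini-Hochberg method, with an adjusted p of at most 0.05 taken as a call throughout). In VGAT, 30 were higher and 2 lower, against 21.0% and 41.8% of 16990 genes. In both lines together, 14 genes were higher in TRAP, against 6.11% of genes tested in both, and 1 was lower, Psme4, against 24.5%. The median log2 fold change of the 49 genes was 0.30 in RBP4 and 0.48 in VGAT, and that of all genes tested was −0.34 and −0.31, a difference of 0.64 and 0.79. Scaling the libraries with edgeR's TMM factors moved the median of all genes to −0.05 and −0.06 and kept that difference at 0.64 and 0.79, and the calls became 37 higher and 3 lower in RBP4, against 19.3% and 22.4% of all genes, and 39 and 2 in VGAT, against 29.4% and 32.5%. Every TRAP library lay above every WCH library for 10 genes in RBP4 and 28 in VGAT, against 6.42% and 16.9% of all genes, and below for 3 (Psmb8, Psmb9 and Psme4) and 1 (Psme4), against 23.8% and 34.7%.

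Of the beta subunits without an active site, 2 of 4 rose in RBP4 and 4 of 4 in VGAT, led in both by Psmb4, with log2 fold changes of 0.80 ± 0.24 (SE, adjusted p = 0.0111) and 1.01 ± 0.19 (adjusted p = 0.000123). Of the alpha subunits, 1 of 8 rose in RBP4, Psma7 at 0.53 ± 0.17 (adjusted p = 0.0184), and 5 of 8 in VGAT, led by Psma6 at 0.64 ± 0.12 (adjusted p = 8.44e-05). In the regulatory particle, 6 of 11 non-ATPase subunits rose in RBP4 and 7 of 11 in VGAT. The leading ones were Psmd8, a lid subunit, at 1.03 ± 0.17 in RBP4 (adjusted p = 7.4e-05), and Psmd4, a ubiquitin receptor, at 0.87 ± 0.11 in VGAT (adjusted p = 8.72e-07). Of the 6 ATPases of the base 0 were called in RBP4 and 1 in VGAT, Psmc6 at 0.35 ± 0.11 (adjusted p = 0.00796). Their median log2 fold change was 0.26 in RBP4 and 0.12 in VGAT. The ATPase calls depended on the scaling, since with TMM factors all 6 rose in RBP4 and 4 of 6 in VGAT.

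**Figure D2:**
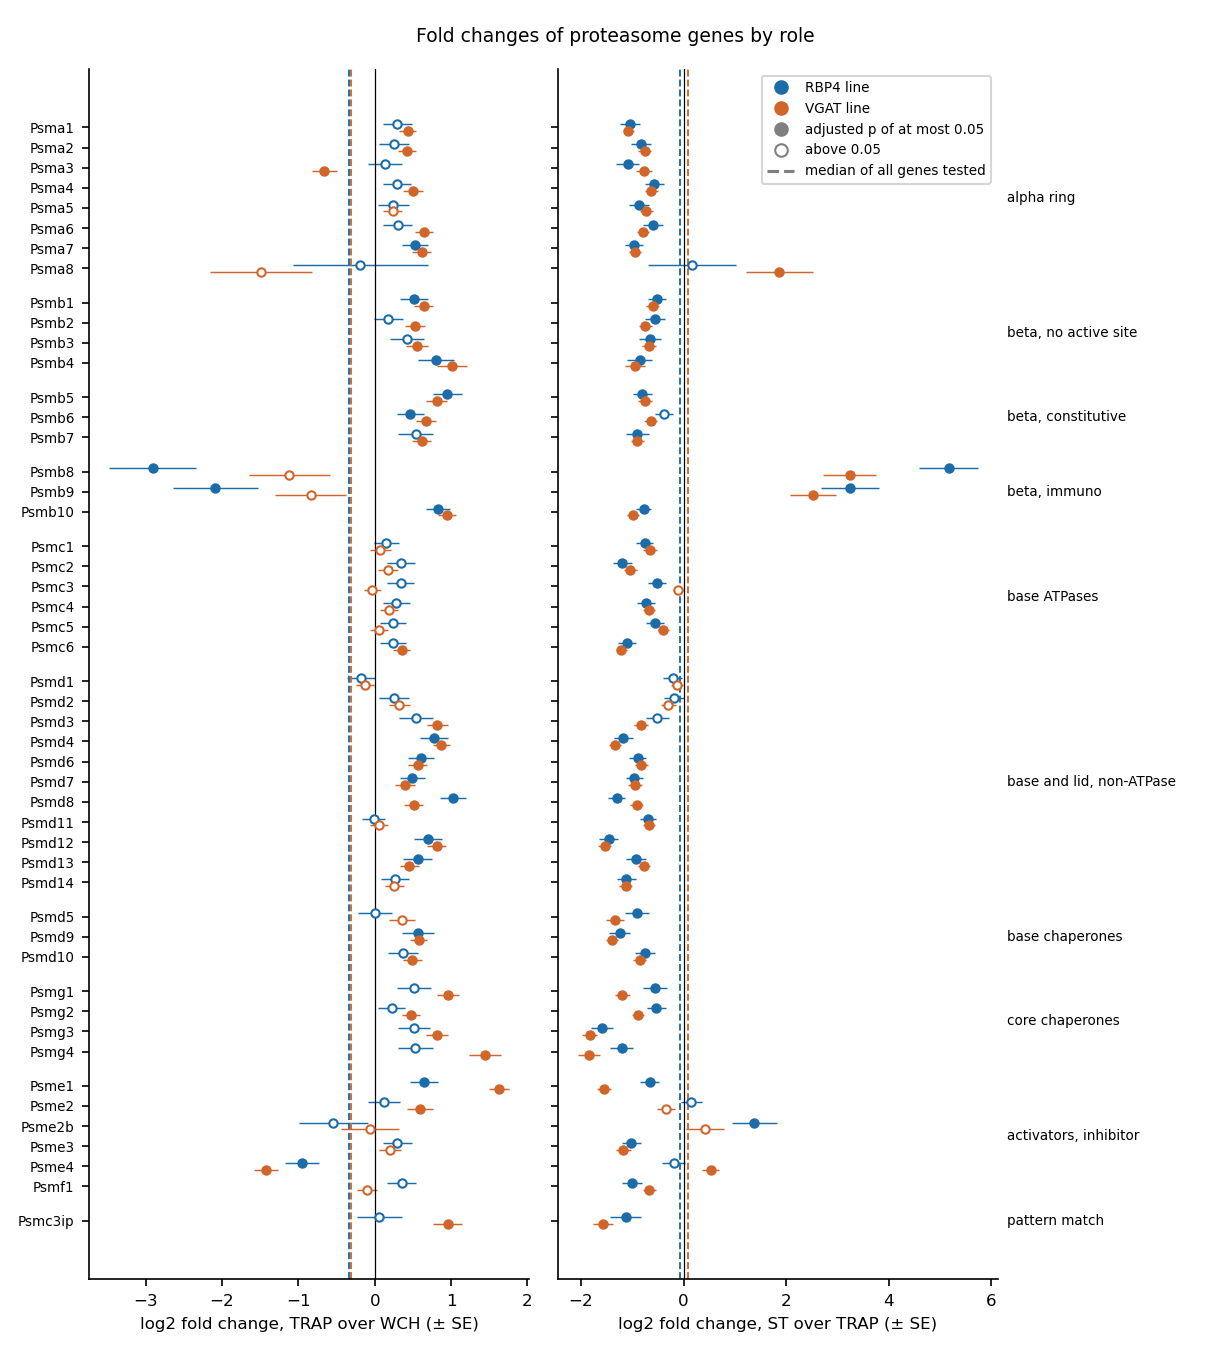
Log2 fold change of each of the 49 genes in TRAP against WCH (left) and in ST against TRAP (right), with genes placed by role, both lines shown, bars for the SE and dashed lines at the median of all genes tested. Filled points passed the adjusted p of 0.05. Most points lie above 0 in TRAP against WCH and below 0 in ST against TRAP, where Psmb8 reaches 5.17 in RBP4.

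The 3 constitutive catalytic subunits are given library by library. Psmb5, which carries the chymotrypsin-like site, was at 31.1, 19.8, 24.2, 34.2 and 25.8 cpm in RBP4 WCH replicates 1 to 5 and at 40.9, 56.1, 58.6, 54.4 and 51.6 in the matching TRAP libraries. In VGAT it was at 34.3, 32.9, 24.5, 29.2 and 25.8 in WCH and at 56.0, 54.6, 44.1, 55.8 and 47.1 in TRAP. No TRAP library overlapped the WCH libraries in either line, and the log2 fold changes were 0.95 ± 0.19 in RBP4 (adjusted p = 0.000382) and 0.81 ± 0.13 in VGAT (adjusted p = 2.3e-05).

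Psmb6, which carries the caspase-like site, was at 290, 210, 214, 263 and 290 cpm in RBP4 WCH and at 292, 367, 377, 304 and 411 in TRAP. The separation was narrow in replicate 1, and the log2 fold change was 0.47 ± 0.18 (adjusted p = 0.0398, and 0.085 with no filter on low counts). In VGAT, Psmb6 was at 216 to 272 cpm in WCH and 338 to 406 in TRAP, a log2 fold change of 0.67 ± 0.13 (adjusted p = 0.000111).

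Psmb7, which carries the trypsin-like site, was at 400, 222, 189, 300 and 244 cpm in RBP4 WCH and at 366, 504, 356, 393 and 347 in TRAP. WCH replicate 1 lay inside the TRAP range, and the gene was not called in RBP4 (log2 fold change 0.54 ± 0.23, adjusted p = 0.0627), but was with the replicate block (adjusted p = 0.031) and with TMM factors (adjusted p = 0.0044). In VGAT it rose from 211 to 307 cpm in WCH to 323 to 427 in TRAP, a log2 fold change of 0.62 ± 0.12 (adjusted p = 0.000221).

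The promoters of Psmb5 and Psmb6 are shown because both genes rose in TRAP in both lines, and because the windows hold the core of the antioxidant response element, TGACNNNGC, the sequence read by the factor that drives subunit transcription under stress. The windows are from RefSeq on GRCm38.p6, read 5′ to 3′ on the gene's strand, with the motif in capitals.
Psmb5: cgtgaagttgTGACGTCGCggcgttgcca
Psmb6: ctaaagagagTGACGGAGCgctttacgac
The first lies at chr14:54618024-54618052 on the minus strand, with the motif beginning 47 bases before the start of the gene, and the second at chr11:70525338-70525366 on the plus strand, 9 bases before the start. Windows of 300 bases around the start, 250 before and 50 after, were found for 41 of the 49 genes. On either strand, 6 of the 41 genes (14.6%) held this motif, and 14.0% of all 27025 genes with a window did. The other 4 were Psmc6, Psmd9, Psmd12 and Psme4, and Psme4 was lower in TRAP in both lines.

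The exceptions in TRAP were few. Psme4, a large activator that caps the core without ATP, was at 104, 108, 135, 99 and 123 cpm in RBP4 WCH and at 55.9, 41.4, 55.9, 55.0 and 86.1 in TRAP, and at 88 to 102 in VGAT WCH and 32.8 to 37.0 in VGAT TRAP. All TRAP libraries lay below all WCH libraries of their line. The log2 fold changes were −0.95 ± 0.22 in RBP4 (adjusted p = 0.00169) and −1.42 ± 0.16 in VGAT (adjusted p = 2.26e-07), against a median of −0.34 and −0.31 over all genes. Psma3, an alpha subunit, fell in VGAT by 0.66 ± 0.16 on the log2 scale (adjusted p = 0.00127). Its WCH libraries were at 185, 268, 339, 314 and 321 cpm and its TRAP libraries at 178, 140, 192, 188 and 205, so the groups overlapped through WCH replicate 1. In RBP4, Psma3 was at 171 to 362 cpm in WCH and 216 to 339 in TRAP and was not called (log2 fold change 0.13 ± 0.22, adjusted p = 0.653).

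Of the 6 activators and inhibitors 1 rose in TRAP in RBP4 and 2 in VGAT, and of the 7 assembly chaperones 1 rose in RBP4 and 6 in VGAT. Psme1, which with Psme2 forms an interferon-inducible activator ring, rose by 0.64 ± 0.18 on the log2 scale in RBP4 (adjusted p = 0.00719) and by 1.63 ± 0.13 in VGAT (adjusted p = 5.04e-09). Psme2 rose in VGAT at 0.60 ± 0.17 (adjusted p = 0.00526), and in RBP4 it had a log2 fold change of 0.12 ± 0.21 (adjusted p = 0.666). All 4 core chaperones rose in VGAT, by 1.44 ± 0.21 for Psmg4 (adjusted p = 6.04e-06), 0.96 ± 0.14 for Psmg1 (adjusted p = 6.24e-06), 0.82 ± 0.15 for Psmg3 (adjusted p = 6.36e-05) and 0.48 ± 0.12 for Psmg2 (adjusted p = 0.00149). None of the 4 was called in RBP4, where their median log2 fold change was 0.51. With the replicate block Psmg3 (adjusted p = 0.044) and Psmg4 (adjusted p = 0.034) were called there, and with TMM factors all 4 were. Of the 3 base chaperones, Psmd9 rose in both lines, at 0.57 ± 0.21 (adjusted p = 0.0327) and 0.58 ± 0.11 (adjusted p = 0.000152), and Psmd10 rose in VGAT at 0.49 ± 0.13 (adjusted p = 0.00186).

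The count in RBP4 was sensitive to single replicates, with 7 genes higher without replicate 2 or without replicate 3 and 9 without replicate 4. In VGAT it stayed between 29 and 32 when any replicate was left out.

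The comparison of SNF with WCH asks which transcripts are retained in the synaptic fraction of the whole tissue. In RBP4, 0 of the 49 genes were higher and 29 were lower, where 13.4% of all genes were higher and 36.1% lower, and in VGAT 1 was higher and 40 were lower, against 19.3% and 45.2%. The 29 genes lower in RBP4 were also lower in VGAT, against 35.0% of genes lower in both lines. The median log2 fold change of the 49 genes was −0.58 in RBP4 and −0.62 in VGAT, beside −0.50 and −0.52 for all genes, so that the distance from all genes was −0.08 and −0.10. The number called therefore followed the scaling: with TMM factors 9 were lower and 1 was higher in RBP4, against 17.9% and 19.3% of all genes, and 16 were lower and 1 was higher in VGAT, against 27.9% and 24.6%. By DESeq2 8 were lower and 3 higher in RBP4, and 14 lower and 3 higher in VGAT. Without RBP4 replicate 1, 12 genes were lower in RBP4, and without replicate 4, 18 were. The 5 libraries of each group did not overlap for 14 lower genes in RBP4 and 36 in VGAT, against 27.1% and 36.9% of all genes, and for 1 higher gene in each, against 10.5% and 15.2%.

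With TMM factors the 9 lower genes of 49 in RBP4 stood near the share of all genes, so the counts by role that follow describe the scaling used and are not read as particular to the subunits. In RBP4, 6 of 8 alpha subunits fell, led by Psma1 at −0.98 ± 0.20 (adjusted p = 0.000498), 4 of 6 ATPases, led by Psmc6 at −1.01 ± 0.18 (adjusted p = 0.000206), and 9 of 11 non-ATPase subunits, led by Psmd11, a lid subunit, at −0.91 ± 0.16 (adjusted p = 0.000187). In VGAT the same groups had 7 of 8, 6 of 6 and 10 of 11 lower, led by Psma1 at −0.91 ± 0.11 (adjusted p = 8.95e-07), Psmc6 at −0.78 ± 0.11 (adjusted p = 3.72e-06) and Psmd4 at −0.88 ± 0.11 (adjusted p = 1.01e-06). Of the 3 immunoproteasome genes 0 were lower in RBP4 and 1 in VGAT. All 3 base chaperones fell in both lines. Psmd5 had a log2 fold change of −1.15 ± 0.23 in RBP4 (adjusted p = 0.000516) and −1.16 ± 0.17 in VGAT (adjusted p = 7.28e-06), and Psmd9 had −0.70 ± 0.21 (adjusted p = 0.00846, not called with TMM factors) and −1.02 ± 0.12 (adjusted p = 3.66e-07).

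Of the catalytic subunits, Psmb6 was at 178, 187, 264, 192 and 269 cpm in RBP4 SNF, overlapping WCH, with a log2 fold change of −0.22 ± 0.18 (adjusted p = 0.307), and Psmb5, at 19.1, 18.9, 25.0, 24.9 and 28.4 cpm, had one of −0.22 ± 0.19 (adjusted p = 0.337). In VGAT both were called lower, at −0.42 ± 0.13 (adjusted p = 0.00653) and −0.58 ± 0.13 (adjusted p = 0.000717), and with TMM factors neither was (adjusted p = 0.77 and 0.24). Psmb7 was lower in both lines, at −0.62 ± 0.23 (adjusted p = 0.0277) and −0.58 ± 0.12 (adjusted p = 0.000376), and in neither with TMM factors (adjusted p = 0.32 and 0.22). The gene higher in VGAT SNF was Psmb9, at 1.36 ± 0.43 (adjusted p = 0.00878), and it is described with the immunoproteasome.

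**Figure D3:**
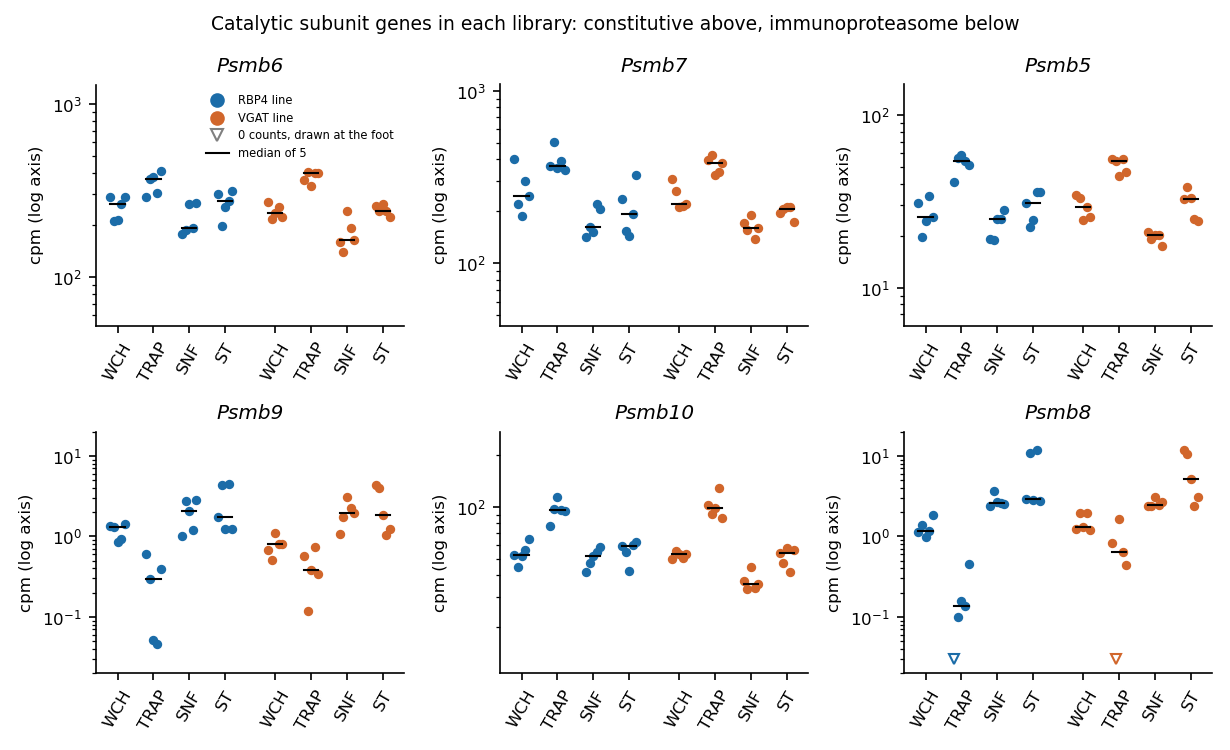
Level in each library, in cpm, of the 3 constitutive catalytic genes (Psmb5, Psmb6, Psmb7) and the 3 immunoproteasome genes (Psmb8, Psmb9, Psmb10), by fraction and line, on log axes with a separate range for each gene, with each point 1 library, a line at the median of 5 and open triangles at the foot for libraries with 0 reads. Psmb10 follows the constitutive genes, highest in TRAP at 77.0 to 128 cpm, while Psmb8 and Psmb9 are lowest in TRAP and reach 11.9 and 4.47 cpm in ST.

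The comparison of ST with TRAP asks which transcripts are more or less abundant in the capture from the synaptic fraction than in that from the homogenate. In RBP4, 39 of 49 genes were lower in ST and 3 were higher, where 29.1% of all genes were lower and 26.0% higher, and in VGAT 40 were lower and 4 higher, against 34.0% and 37.5%. In both lines 38 genes were lower, against 24.1% of genes, and 2 were higher, Psmb8 and Psmb9, against 22.6%. The median log2 fold change of the 49 genes was −0.78 in RBP4 and −0.79 in VGAT, and that of all genes −0.07 and 0.08, so that the subunit genes lay 0.71 and 0.87 below all genes. For 31 genes in RBP4 and 40 in VGAT every ST library lay below every TRAP library, against 19.4% and 26.9% of all genes, and for 3 and 2 every ST library lay above, against 13.6% and 24.3%. The counts of lower genes stayed between 32 and 40 in RBP4 and between 40 and 41 in VGAT when replicates were left out, and were 38 and 40 with TMM factors, against 26.5% and 34.3% of all genes. Markers of oligodendrocytes, astrocytes, microglia and endothelium all rose in ST in the same comparisons, 7 of 7, 7 of 7, 10 of 10 and 8 of 8 in each line, and of 4 neuronal markers 3 fell in each line and 1 rose in VGAT. Of the 7 GABAergic markers 5 rose and 0 fell in RBP4, and all 7 fell in VGAT. Of the 4 layer 5 or glutamatergic markers 1 rose and 2 fell in RBP4, and 3 rose and 1 fell in VGAT. Markers of untagged neurons thus also rose in ST. The part of RNA from untagged cells in the lower share of subunit transcripts was not tested. Without the library labelled RBP4 ST replicate 4, 40 genes were lower and 3 higher in RBP4.

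The decrease reached every role group. Of the 8 alpha subunits 7 fell in each line, led by Psma7 at −0.96 ± 0.17 in RBP4 (adjusted p = 7.33e-05) and Psma1 at −1.07 ± 0.11 in VGAT (adjusted p = 2.95e-08), and the exception was the barely detected Psma8. All 4 beta subunits without an active site fell in both lines, led by Psmb4 at −0.86 ± 0.24 in RBP4 (adjusted p = 0.00435) and Psmb2 at −0.74 ± 0.13 in VGAT (adjusted p = 2.55e-05). All 6 ATPases fell in RBP4, led by Psmc2 at −1.19 ± 0.19 (adjusted p = 1.72e-05), and 5 of 6 in VGAT, led by Psmc6 at −1.21 ± 0.11 (adjusted p = 3.62e-09). Of the 11 non-ATPase subunits, 8 fell in RBP4 and 9 in VGAT, where the ubiquitin receptor Psmd4 had −1.34 ± 0.11 (adjusted p = 9.03e-10).

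Psmd12, a lid subunit, had the smallest p of the non-ATPase subunits in RBP4. It was at 173, 169, 177, 188 and 140 cpm in RBP4 TRAP and at 59.7, 66.9, 43.0, 48.7 and 89.1 in ST, and at 152 to 190 in VGAT TRAP and 53.7 to 65.1 in VGAT ST. The groups did not overlap in either line, and the log2 fold changes were −1.46 ± 0.19 (adjusted p = 1.48e-06) and −1.53 ± 0.13 (adjusted p = 9.8e-10).

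All assembly chaperones fell in both lines. Psmg3, which pairs with Psmg4 in building the alpha ring, was at 22.9, 30.9, 30.6, 25.4 and 24.4 cpm in RBP4 TRAP and at 8.97, 7.15, 6.14, 8.23 and 14.2 in ST, and at 30.7 to 43.7 in VGAT TRAP and 8.33 to 12 in VGAT ST. The log2 fold changes were −1.59 ± 0.22 (adjusted p = 3.12e-06) and −1.83 ± 0.15 (adjusted p = 9.15e-10). The groups did not overlap. The 4 core chaperones had a median of −0.88 in RBP4 and −1.51 in VGAT and the 3 base chaperones −0.90 and −1.33, where the non-ATPase subunits had −0.93 and −0.84. Psmg4 fell by 1.21 ± 0.23 (adjusted p = 0.000136) and 1.84 ± 0.22 (adjusted p = 1.32e-07) on the log2 scale. Psmg1, at −0.56 ± 0.23 in RBP4 (adjusted p = 0.0409), was not called there with TMM factors (adjusted p = 0.079), and in VGAT it had −1.19 ± 0.14 (adjusted p = 1.69e-07). Psmg2 had −0.53 ± 0.18 (adjusted p = 0.0156) and −0.89 ± 0.12 (adjusted p = 9e-07). The base chaperone Psmd9 had −1.25 ± 0.21 in RBP4 (adjusted p = 3.32e-05) and −1.40 ± 0.12 in VGAT (adjusted p = 8.02e-10), Psmd5 −0.90 ± 0.23 (adjusted p = 0.00192) and −1.33 ± 0.17 (adjusted p = 5.43e-07), and Psmd10 −0.75 ± 0.20 (adjusted p = 0.00307) and −0.85 ± 0.13 (adjusted p = 3.38e-06).

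The constitutive catalytic subunits had medians of −0.80 in RBP4 and −0.75 in VGAT. Psmb5 was at 30.9, 22.4, 24.6, 36.0 and 36.0 cpm in RBP4 ST, below all TRAP libraries, with a log2 fold change of −0.80 ± 0.19 (adjusted p = 0.000831), and in VGAT at 32.8, 38.1, 33.1, 24.8 and 24.5 cpm with one of −0.75 ± 0.13 (adjusted p = 3.41e-05). Psmb7 had −0.90 ± 0.23 (adjusted p = 0.00191) and −0.90 ± 0.12 (adjusted p = 1.35e-06). Psmb6 was at 301, 196, 255, 275 and 314 cpm in RBP4 ST, where replicates 1 and 5 lay inside the TRAP range, and was not called (log2 fold change −0.38 ± 0.18, adjusted p = 0.0699, and 0.043 with the replicate block), and in VGAT it had −0.64 ± 0.13 (adjusted p = 0.000117).

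Among the activators and the inhibitor, Psme3, the nuclear activator, fell in both lines, at −1.01 ± 0.19 (adjusted p = 9.76e-05) and −1.17 ± 0.15 (adjusted p = 2.82e-07), as did Psmf1, an inhibitor of the core that also takes part in its transport, at −1.0 ± 0.19 (adjusted p = 0.000128) and −0.66 ± 0.13 (adjusted p = 7.44e-05). Psme1 fell too, at −0.66 ± 0.18 (adjusted p = 0.00353) and −1.56 ± 0.13 (adjusted p = 1.46e-09). Psme4 was at 45.3, 36.6, 49.3, 72.4 and 53.9 cpm in RBP4 ST, overlapping TRAP, with a log2 fold change of −0.19 ± 0.22 (adjusted p = 0.472). In VGAT it was at 55.6, 58.4, 31.7, 48.9 and 54.4 cpm and rose by 0.53 ± 0.16 (adjusted p = 0.00551), but ST replicate 3 lay below all 5 TRAP libraries, and the gene was not called without the 4 ST libraries high in Cldn5 described below (adjusted p = 0.0683).

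Psmd1 and Psmd2, the large scaffold subunits of the base, were not called. Psmd1 had log2 fold changes of −0.21 ± 0.18 (adjusted p = 0.326) and −0.12 ± 0.12 (adjusted p = 0.36), and Psmd2, which binds ubiquitin-like domains, had −0.18 ± 0.20 (adjusted p = 0.452) and −0.29 ± 0.14 (adjusted p = 0.0681). RBP4 TRAP replicate 5 held 478 cpm of Psmd2 where the other 4 held 211 to 242. In VGAT the other genes not called were Psmc3 at −0.10 ± 0.11 (adjusted p = 0.384), Psme2 at −0.34 ± 0.17 (adjusted p = 0.0846) and Psme2b at 0.41 ± 0.37 (adjusted p = 0.327). Psme2b rose in RBP4, at 1.38 ± 0.44 (adjusted p = 0.0104), from 0.297 to 0.392 cpm in TRAP to 0.439 to 1.13 in ST, at no more than 21 reads in a library. Psma8 rose in VGAT, at 1.87 ± 0.66 (adjusted p = 0.0147), on 0, 5, 1, 2 and 2 reads in TRAP and 12, 17, 1, 4 and 1 in ST. The groups overlapped, with most of the ST reads in replicates 1 and 2, and it was not called without replicate 1 or without the 4 ST libraries high in Cldn5 (adjusted p = 0.652).

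Of the 3 immunoproteasome genes, Psmb8 and Psmb9 were higher in ST than in TRAP in both lines, and Psmb10 was lower, as most subunit genes were. Psmb8, which replaces Psmb5, was at 17, 22, 16, 18 and 30 reads in RBP4 WCH replicates 1 to 5, at 0, 2, 3, 3 and 8 in TRAP, at 31, 63, 27, 35 and 31 in SNF and at 51, 229, 44, 222 and 44 in ST. In cpm these were 0.973 to 1.85 in WCH, 0 to 0.448 in TRAP, 2.38 to 3.64 in SNF, and 2.93, 10.8, 2.84, 11.9 and 2.76 in ST. The medians of the 4 fractions followed the order TRAP, WCH, SNF and ST, with no overlap except between SNF and ST. The steps above WCH were not called in RBP4. The log2 fold change was 1.08 in SNF against WCH (adjusted p = 0.0576) and 1.18 in ST against SNF (adjusted p = 0.093). In VGAT, SNF against WCH was not called either, at 0.76 (adjusted p = 0.179).

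In VGAT, Psmb8 was at 0.829, 0, 1.66, 0.634 and 0.437 cpm in TRAP, at 1.20 to 1.96 in WCH, at 2.39 to 3.13 in SNF and at 11.9, 10.5, 5.17, 2.38 and 3.11 in ST. TRAP replicate 3 overlapped WCH. Psmb8 was lower in TRAP than in WCH in RBP4, with a log2 fold change of −2.91 ± 0.57 (adjusted p = 0.000395), and was not called in VGAT at −1.12 ± 0.53 (adjusted p = 0.0704). Against TRAP it was higher in ST, at 5.17 ± 0.57 in RBP4 (adjusted p = 2.76e-07) and 3.24 ± 0.52 in VGAT (adjusted p = 9.14e-06). With so few reads in TRAP these fitted values depend on the prior count of the model and are not a measure of size.

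Psmb9, which replaces Psmb6, was higher in ST than in TRAP, as Psmb8 was. In RBP4 it was at 0.596, 0.297, 0.0519, 0.0455 and 0.392 cpm in TRAP and at 1.73, 4.33, 1.23, 4.47 and 1.25 in ST, and in VGAT at 0.119 to 0.740 in TRAP and 4.32, 3.97, 1.86, 1.04 and 1.23 in ST. ST lay above TRAP in every library of both lines, and the log2 fold changes were 3.24 ± 0.56 (adjusted p = 4.03e-05) and 2.52 ± 0.45 (adjusted p = 3.48e-05). In TRAP against WCH, Psmb9 had −2.09 ± 0.56 in RBP4 (adjusted p = 0.0052) and −0.84 ± 0.47 in VGAT (adjusted p = 0.122). It was at 20, 21, 14, 14 and 23 reads in RBP4 WCH and 13, 47, 21, 16 and 35 in SNF. In VGAT it was at 11, 9, 17, 13 and 15 in WCH and 17, 24, 28, 29 and 26 in SNF. SNF overlapped WCH in both lines, with log2 fold changes of 0.75 (adjusted p = 0.215) and 1.36 (adjusted p = 0.00878). In ST against SNF it was not called, at 0.41 (adjusted p = 0.651) and 0.32 (adjusted p = 0.609).

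Psmb10, which replaces Psmb7, behaved like a constitutive subunit. It was at 52.2, 44.7, 51.9, 56.4 and 65.0 cpm in RBP4 WCH, at 77.0, 97.1, 114, 95.6 and 95.0 in TRAP, at 42.1 to 58.1 in SNF and at 42.3 to 62.8 in ST. TRAP stood above the other fractions with no overlap. It rose in TRAP against WCH, at 0.82 ± 0.16 in RBP4 (adjusted p = 0.000266) and 0.95 ± 0.12 in VGAT (adjusted p = 1.03e-06), and fell in ST against TRAP, at −0.78 ± 0.16 (adjusted p = 0.000193) and −0.98 ± 0.12 (adjusted p = 2.58e-07).

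Set beside the subunit it replaces, per kilobase of exon, Psmb8 had a median of 1.28% of the level of Psmb5 in RBP4 WCH, 0.08% in TRAP, 3.37% in SNF and 3.69% in ST, where the highest library reached 15.3%. In VGAT the medians were 1.70%, 0.36%, 3.99% and 4.97%. Psmb9 stood at medians between 0.04% and 0.62% of Psmb6 over the 8 groups, and Psmb10 between 19.2% and 28.1% of Psmb7. The exon length was 2736 bases for Psmb8 and 871 for Psmb5, and 3659 for Psmb9 and 1872 for Psmb6. With a kit that favours 3′ ends, the percentages of Psmb8 and Psmb9 may therefore be understated. None of the available promoter windows of the 3 immunoproteasome genes held either motif searched.

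Most markers of 4 kinds of non-neuronal cells fell from WCH to TRAP and all rose from TRAP to ST, as Psmb8 and Psmb9 did in RBP4. Of the 7 astrocyte and 7 oligodendrocyte markers, 6 of each fell to TRAP in RBP4 and all in VGAT, and of the 8 endothelial markers 6 and 7 did. The summed level of 10 microglial markers was 17.2 to 50.4 cpm in RBP4 TRAP, 139 to 266 in WCH, 231 to 751 in SNF and 98.2 to 409 in ST, and in VGAT 29.4 to 119, 231 to 323, 578 to 914 and 325 to 630. All 10 were lower in TRAP than in WCH and higher in ST than in TRAP in both lines, and none was at 0 in any library. From SNF to ST the microglial markers had median log2 fold changes of −0.59 in RBP4 and −0.17 in VGAT, with 0 of 10 called higher, where Psmb8 had 1.18 (adjusted p = 0.093) and 1.36. The endothelial markers had medians of 2.10 and 1.13, with 3 and 2 of 8 called higher. The astrocyte markers had −0.17 and −0.10, with 0 and 1 of 7 called higher. The oligodendrocyte markers had −0.16 and −0.57, with 3 of 7 called higher in each line. Called lower from SNF to ST were 1 oligodendrocyte marker in RBP4 and 2 in VGAT. In VGAT 2 microglial markers and 1 astrocyte marker were also called lower, and 0 of either in RBP4. Of the endothelial markers 0 were called lower in either line. The cell type behind the level of Psmb8 was not tested. The summed level of 8 endothelial markers was 1.34 to 6.5 cpm over the TRAP libraries, 12.5 to 24.5 in WCH and 15.8 to 69.5 in SNF. In ST it was 27.4, 494, 10.7, 67.4 and 100 cpm in RBP4 and 324, 148, 19.8, 26.0 and 53.0 in VGAT. At 0 in at least 1 library were 2 of the 8 in RBP4 TRAP and 3 in VGAT TRAP, and none was at 0 in all 5 libraries of a group.

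Cldn5, the tight junction protein of brain endothelium, was at 16.0 and 7.32 cpm in RBP4 ST replicates 2 and 4 and at 28.0 and 10.3 in VGAT ST replicates 1 and 2, and at 0.452 to 1.63 in the other 6 ST libraries. These 4 libraries were the ones with the most Psmb8, at 10.5 to 11.9 cpm beside 2.38 to 5.17 in the other 6. Cldn5 is 1 of the 8 endothelial markers, and their sum did not single out the same libraries in RBP4. It was 100 cpm in RBP4 ST replicate 5, with 2.76 cpm of Psmb8, and 67.4 in replicate 4. In VGAT it was highest in replicates 1 and 2. The microglial sum was highest in the same 4 libraries, at 385 and 409 cpm in RBP4 ST and 541 and 630 in VGAT ST. The 4 libraries high in Cldn5 were left out in an alternative chosen after the data were seen. They also held the most Psmb8 and Psmb9 among the ST libraries of their line, so leaving them out had to lower both fold changes. Psmb8 in ST against TRAP was then 4.03 in RBP4 (adjusted p = 2.76e-06) and 2.32 in VGAT (adjusted p = 0.000514), and Psmb9 was 2.35 (adjusted p = 0.00165) and 1.65 (adjusted p = 0.00258). The part of these cells' RNA in the levels of Psmb8 and Psmb9 was not tested.

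**Figure D4:**
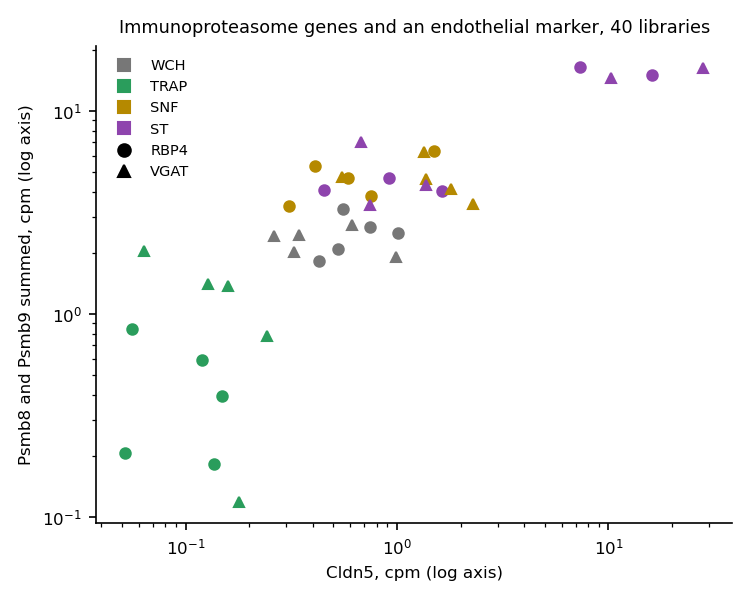
Summed level of Psmb8 and Psmb9 against the level of Cldn5 in each of the 40 libraries, both in cpm on log axes, with colours for the fraction and shapes for the line. The 4 ST libraries with 7.32 to 28.0 cpm of Cldn5 stand at the upper right, with 10.5 to 11.9 cpm of Psmb8 alone, and the TRAP libraries, at no more than 0.243 cpm of Cldn5, at the lower left.

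The comparison of ST with SNF asks what the capture of tagged ribosomes adds to the synaptic fraction. In RBP4, 2 of 49 genes were higher and 0 lower, against 5.64% and 5.46% of all genes, with 10 genes at an unadjusted p under 0.05, and DESeq2 called 4 higher and 2 lower. In VGAT 13 were higher and 0 lower, against 16.3% and 11.2%, with 27 genes at an unadjusted p under 0.05, and DESeq2 called 6 higher and 1 lower. The median log2 fold change was 0.18 and 0.29, beside −0.05 and 0.08 for all genes. The VGAT count was 5 with TMM factors, 5 without replicate 2, 8 without replicate 4, 22 without replicate 3 and 5 without the libraries high in Cldn5. With the replicate block 3 genes were higher and 2 lower in RBP4, and 19 higher and 1 lower in VGAT. With TMM factors 2 were higher in RBP4, against 6.91% higher and 5.22% lower of all genes, and the 5 in VGAT stood against 11.7% and 14.6%. Every ST library lay above every SNF library for 1 gene in RBP4 and 6 in VGAT, against 3.55% and 8.99% of all genes, and below for 0 in both, against 3.09% and 6.38%.

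Psmd2 was the gene called higher in both lines, against 5.47% of genes. It was at 141, 141, 155, 157 and 182 cpm in RBP4 SNF and at 278, 195, 236, 228 and 277 in ST, and at 141, 120, 131, 138 and 126 in VGAT SNF and at 249, 216, 184, 249 and 180 in ST. Every ST library lay above every SNF library, and the log2 fold changes were 0.64 ± 0.20 in RBP4 (adjusted p = 0.0361) and 0.72 ± 0.14 in VGAT (adjusted p = 0.000581). In RBP4 the call was lost when replicate 1, 2, 3 or 4 was left out, with log2 fold changes of 0.56, 0.68, 0.65 and 0.67, without the library labelled RBP4 ST replicate 4 alone and with no filter on low counts, and 0 genes were then called in that line in each case. In VGAT, Psmb5 rose at 0.65 ± 0.14 (adjusted p = 0.000901), Psmb4 at 0.81 ± 0.19 (adjusted p = 0.00279) and Psmc3 at 0.44 ± 0.11 (adjusted p = 0.00306). Psmb8 rose in VGAT at 1.36 ± 0.47 (adjusted p = 0.0332), and without the ST libraries high in Cldn5 it was at 0.45 (adjusted p = 0.571). Those libraries also held the most Psmb8, so leaving them out had to lower its value. Psme2b in RBP4 had 1.44 ± 0.46 (adjusted p = 0.0436).

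Between the lines, calls were made in TRAP alone among the 4 fractions. In WCH, SNF and ST 0 of 49 were called in either direction, with 0, 5 and 1 genes at an unadjusted p under 0.05, and DESeq2 and the likelihood ratio test called 0 as well, as did the fit without the library labelled RBP4 ST replicate 4. Of all genes, 0.00592% were higher and 0.00592% lower in RBP4 in WCH, 0.00564% and 0.0113% in SNF, and 0.0592% and 0.266% in ST. In TRAP, 5 genes were higher in RBP4 and 6 lower, where 12.9% and 15.1% of all genes were, and the median log2 difference was −0.01 for both the 49 genes and all genes.

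Activators, the inhibitor and assembly chaperones made up 6 of the 11 genes that differed. These roles hold 6 activators or inhibitors, 4 core chaperones and 3 base chaperones. In neither direction were calls among the 49 genes more frequent than the 12.9% and 15.1% of all genes. Psme1 was at 26.8, 33.1, 36.0, 40.6 and 30.3 cpm in RBP4 TRAP and at 66.6, 60.2, 46.4, 71.2 and 49.3 in VGAT TRAP, with no overlap, and the log2 difference of RBP4 from VGAT was −0.82 ± 0.16 (adjusted p = 0.000193). Psme2, its partner in the ring, was at 10.1 to 14.5 cpm in RBP4 TRAP and 16.8 to 20.7 in VGAT TRAP, a difference of −0.55 ± 0.17 (adjusted p = 0.013). Psmg4 was at 13.0 to 18.9 and 23.9 to 37.7 cpm, a difference of −0.81 ± 0.21 (adjusted p = 0.00296). Psmg1 had −0.51 ± 0.20 (adjusted p = 0.0493, and 0.098 with TMM factors). The last of the lower genes were Psmb8 at −2.02 ± 0.73 (adjusted p = 0.0359), on at most 26 reads in a library and with overlapping groups, and Psmc3ip, the recombination factor, at −0.82 ± 0.24 (adjusted p = 0.00826).

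Higher in RBP4 TRAP were Psmf1 and Psme4. Psmf1 was at 106, 99.2, 127, 109 and 149 cpm in RBP4 and at 69.6, 78.7, 68.6, 79.0 and 73.3 in VGAT, a log2 difference of 0.68 ± 0.15 (adjusted p = 0.00112), and Psme4 had a difference of 0.77 ± 0.17 (adjusted p = 0.00105). Neither gene's groups overlapped. The lid subunit Psmd8 was at 237 to 268 cpm in RBP4 and 160 to 189 in VGAT (0.51 ± 0.14, adjusted p = 0.00669), and Psma3 at 216 to 339 and 140 to 205 (0.60 ± 0.21, adjusted p = 0.035). The ATPase Psmc3 had 0.40 ± 0.14 (adjusted p = 0.0383), with overlapping groups. The calls of Psmb8, Psmc3, Psma3 and Psmg1 were each lost without at least 1 pool. The groups did not overlap in 4 genes that were higher in RBP4 and 5 that were lower, against 9.58% and 13.2% of all genes.

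**Figure D5:**
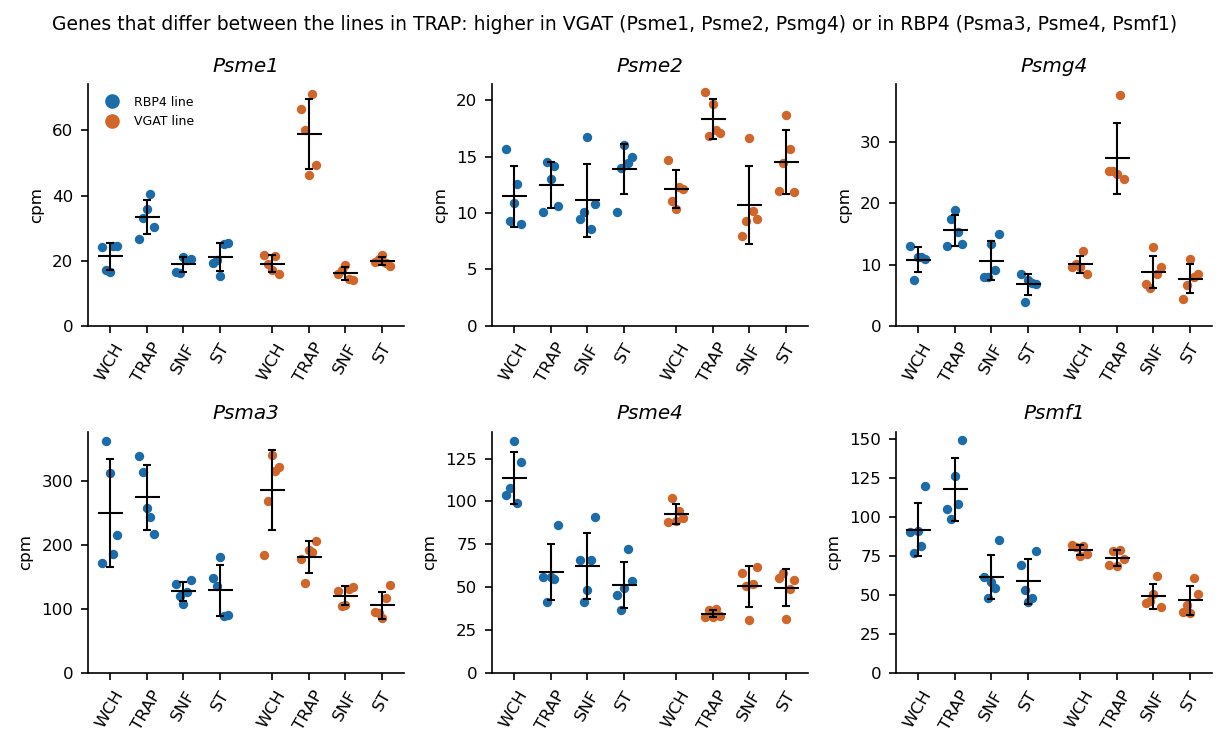
Level in each library, in cpm, of 6 genes that differed between RBP4 and VGAT in TRAP (Psme1, Psme2, Psmg4, Psma3, Psme4 and Psmf1), by fraction and line, with each point 1 library and the mean and SD of 5 marked. Psme1 reaches 71.2 cpm in VGAT TRAP and at most 40.6 in RBP4 TRAP, while both lines lie between 15.9 and 24.6 cpm in WCH.

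The dependence of a fraction's effect on the line was tested as an interaction. In TRAP against WCH, 0 of 49 genes had a larger effect in RBP4 and 2 a larger effect in VGAT, against 5.61% and 6.95% of all genes. These were Psme1 at −0.98 ± 0.22 (adjusted p = 0.00101) and Psmg4 at −0.91 ± 0.31 (adjusted p = 0.0448), the latter not called with TMM factors (adjusted p = 0.0562), with no filter on low counts (adjusted p = 0.0732) or without RBP4 replicate 1 (adjusted p = 0.156). In ST against TRAP, 1 gene was called, higher, against 5.02%, and 0 lower, against 5.79%, with Psme1 at 0.90 ± 0.23 (adjusted p = 0.00757). In ST, Psme1 was at 15.4 to 25.5 cpm in RBP4 and 18.4 to 21.8 in VGAT, which overlapped the WCH levels of 15.9 to 24.6. Both interactions use the same TRAP libraries, so those of Psme1 are not independent. In SNF against WCH and in ST against SNF 0 of 49 genes were called, with 1 gene each at an unadjusted p under 0.05, and 0.0% of all genes were.

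The promoters of Psme1 and Psmg4 are shown because these genes had the interactions, and because their windows hold the core of the interferon-stimulated response element, GAAA, any 2 bases and GAAA again, which is written in capitals as it reads on the gene's strand (on the reverse strand in Psme1). They are from RefSeq on GRCm38.p6, on the plus strand.
Psme1: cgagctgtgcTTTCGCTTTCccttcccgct
Psmg4: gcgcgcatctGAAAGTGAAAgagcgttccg
The first lies at chr14:55578493-55578522, with the motif 9 bases after the start, and the second at chr13:34162969-34162998, with the motif 15 bases after it. The motif was in the windows of 5 of 41 subunit genes (12.2%) and of 3.99% of all 27025 genes, and the others were Psmb3, Psmd4 and Psmd9. It did not overlap the antioxidant core in these windows.

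Another 27 genes of the pathway were followed with the subunits: further subunits and assembly factors, the factors that drive subunit transcription, enzymes bound to the particle, shuttles, and ubiquitin itself. In TRAP against WCH 8 rose and 4 fell in RBP4, where 8.37% of all genes were higher and 31.5% lower, and 10 rose and 4 fell in VGAT, against 21.0% and 41.8%. Their median log2 fold change was 0.28 and 0.20, beside −0.34 and −0.31 for all genes. Among those that rose in RBP4 the smallest p was that of Uchl1, the neuronal ubiquitin hydrolase, at 1.21 ± 0.24 (adjusted p = 0.00049). Among those that fell, the smallest p in both lines was that of Ddi2, the protease that activates the transcription factor Nfe2l1, at −0.98 ± 0.26 (adjusted p = 0.0048) and −1.53 ± 0.18 (adjusted p = 3.5e-07).

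In SNF against WCH 17 pathway genes fell in RBP4 and 0 rose, where 36.1% of all genes were lower and 13.4% higher, and 23 fell and 1 rose in VGAT, against 45.2% and 19.3%. The median was −0.71 and −0.76, beside −0.50 and −0.52 for all genes, and calls in this comparison followed the scaling for the subunits. The gene that rose in VGAT was Nfe2l1 at 0.76 ± 0.12 (adjusted p = 1e-05). In ST against TRAP 19 of the 27 fell in each line, with 3 higher in RBP4 and 4 in VGAT, against 29.1% and 34.0% of all genes lower and 26.0% and 37.5% higher, and the median was −0.92 and −1.03, beside −0.07 and 0.08. Zfand5, a proteasome-binding activator, had the smallest p in both lines, at −1.82 ± 0.23 (adjusted p = 1.4e-06) and −1.92 ± 0.17 (adjusted p = 1.6e-09). Nfe2l1, which drives transcription of subunit genes, was higher, at 0.81 ± 0.20 (adjusted p = 0.0016) and 0.72 ± 0.12 (adjusted p = 1e-05). In ST against SNF the shuttle factor Ubqln4 was higher in both lines, at 1.11 ± 0.16 (adjusted p = 0.00012) and 1.26 ± 0.13 (adjusted p = 1.4e-07). Between the lines in TRAP, 2 of the 27 were lower in RBP4, against 15.1% of all genes, among them Sem1, a small lid subunit, at −0.66 ± 0.22 (adjusted p = 0.023).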

How the data were processed

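Full-length cDNA made from each sample with a low-input kit that does not mark strand was sequenced in single reads. Per the labels and the study's methods, the authors aligned reads with STAR 2.0.4b and assigned those with a single alignment to genes with featureCounts 1.4.5, and the deposited counts are unnormalised. The deposited CPM and RPKM values were made by the authors from those counts; recomputed values differed by at most 4.07e-10 CPM and 2.76e-10 RPKM. The genome build of the alignment is not given in the sources used here. Gene symbols came from GENCODE M21, which held 40254 of the 41388 identifiers.

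Mitochondrial genes (37) and ribosomal and transfer RNA genes (353) were left out, since mitochondrial reads were 0.0584% to 41.9% of a library, and cpm was taken over the remaining counts. Genes that reached 0.5 cpm in 3 or more libraries of a fit were tested with the quasi-likelihood F test of edgeR 4.0.16 in R 4.3.3, with group as the only term, library totals as the only scaling, and adjustment over all genes tested. Alternatives were TMM factors, the likelihood ratio test, DESeq2 1.42.0, no genes left out, other filters, the replicate number as a block, and leaving out each pool. On simulated counts for RBP4 TRAP against WCH, 79 of 200 genes changed by 2-fold were recovered among 16659 genes, with 2 false calls. The data held many more calls in that comparison, 1427 higher and 5372 lower of 17043 genes. The adjustment depends on that number, so the simulated recovery does not give the sensitivity of the reported tests. Figures were drawn with matplotlib 3.10.9.

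Same-numbered samples of a line came from 1 pool, per the study's methods, so the numbers pair them. Their deviations from the group means had mean correlations of −0.0210 to 0.474 over the pairs of fractions, and those of different numbers at −0.115 to 0.000628. No source says that the lines share a number, so a block between the lines was given no meaning beyond the number. Replicate 3 nevertheless stood out in both lines. Mitochondrial reads were 40.2% and 41.9% of SNF replicate 3 in RBP4 and VGAT, and 11.2% to 19.4% of the other SNF libraries. In ST replicate 3 they were 15.8% and 19.0%, and 2.71% to 7.08% in the other ST libraries. A shared preparation of same-numbered pools was not tested. No 2 libraries of the same group agreed within sampling noise, and libraries of different groups were not compared in this way. In the main fit, with group as the only term, the fractions of a pool were treated as independent samples. Its p-values measure the spread between the libraries of a group, each from a different pool.

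The genes and lists were chosen with earlier results of these data known. Named were the catalytic subunits, in each comparison the called gene with the smallest p of each role group and direction, called activators, inhibitor and chaperones, and genes not called where 5 or fewer were left. Psma3, Psmb1, Psmc5, Psmd1, Psmd2, Psmd3, Psmd8, Psmd12 and Psmg3 are otherwise given after their values were seen. Promoter windows were read from RefSeq on GRCm38.p6, and none was found for 8 genes. A gene of the pathway list is included in the counts, but its own values are not reported here.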

Additional observations from a re-analysis of the deposited data

Results flagged for a closer look

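Among 120 groups of 5 libraries examined, 6 held 1 library far from the other 4, where chance gives about 1 in 20 groups. Psmb8 was at 3.64 cpm in RBP4 SNF replicate 2 beside 2.38 to 2.64 in the others. Psme2 was at 16.7 cpm in RBP4 SNF replicate 3, beside 8.56 to 10.8, and at 16.6 in VGAT SNF replicate 3, beside 7.93 to 10.2. Both libraries also had the highest mitochondrial share of their line, at 40.2% and 41.9%. Psmd2, the scaffold subunit of the base, was at 478 cpm in RBP4 TRAP replicate 5 beside 211 to 242. Psmd8 was at 114 cpm in VGAT ST replicate 1 beside 84.3 to 91.1. The chaperone Psmg4 was at 37.7 cpm in VGAT TRAP replicate 4 beside 23.9 to 25.3.

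The effect of a fraction differed between the lines for 2 genes, by the interaction term in edgeR. Psme1 had a difference of RBP4 from VGAT of −0.98 on the log2 scale in TRAP against WCH and 0.90 in ST against TRAP, and both kept their call under every alternative run. Psmg4 had −0.91 in TRAP against WCH.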

How the results depend on the processing

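Of 2812 values of the named genes under alternative settings, 2560 kept direction and call, 149 lost the call, 28 gained it and 75 changed sign. In 73 of the 75 the gene was called under neither setting, among them Psmb9 in ST against SNF, which went from 0.41 to −0.49 in RBP4 and from 0.32 to −0.55 in VGAT without the ST libraries high in Cldn5. Those libraries also held the most Psmb9, so leaving them out had to lower its value. The other 2 changes of sign were in SNF against WCH by DESeq2, at 0.34 for Psmb10 in RBP4 and 0.036 for Psmb6 in VGAT. The number of genes that met the minimum was 49 under both minimums.

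With TMM factors 37 genes were higher in RBP4 TRAP against WCH, 1 higher and 9 lower in RBP4 SNF against WCH, 16 lower in VGAT SNF against WCH, 5 higher in VGAT ST against SNF, and 1 higher and 1 lower in the interaction of line with TRAP against WCH. By DESeq2 these were 38, 3 and 8, 14 (with 3 higher), 6 (with 1 lower) and 2 higher, and 4 were higher and 2 lower in RBP4 ST against SNF. The likelihood ratio test gave 1 higher in RBP4 SNF against WCH, 1 lower in RBP4 ST against SNF, 4 lower in VGAT TRAP against WCH, 1 lower in the interaction with ST against TRAP and 1 higher in that with TRAP against WCH. With no genes left out 9 and 30 were higher in ST against SNF in RBP4 and VGAT and 2 in VGAT ST against TRAP. With no filter 0 were higher in RBP4 ST against SNF and 1 lower in the interaction with TRAP against WCH, and with 1 cpm in 5 libraries 1 was higher and 1 lower in the first and 1 higher in the second.

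With the replicate block 1 was higher in RBP4 SNF against WCH, 2 lower in RBP4 ST against SNF, 1 lower in VGAT ST against SNF, 1 lower in the interaction with ST against TRAP and 2 higher in that with TRAP against WCH. Its other counts moved by no more than 1.5 times. Without the ST libraries high in Cldn5, chosen after the data were seen, 1 was higher in RBP4 ST against SNF, 5 in VGAT ST against SNF and 2 in VGAT ST against TRAP. Without the library labelled RBP4 ST replicate 4, 0 were higher in RBP4 ST against SNF and 1 was lower in the interaction with ST against TRAP. The cause of these changes was not tested.

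Leaving out each pool gave 7 to 17 higher in RBP4 TRAP against WCH, 0 to 1 higher and 12 to 31 lower in RBP4 SNF against WCH, 0 to 3 higher in RBP4 ST against SNF, 2 to 3 higher in RBP4 ST against TRAP, 2 to 3 lower in VGAT TRAP against WCH, 5 to 22 higher and 0 to 1 lower in VGAT ST against SNF, 3 to 5 higher and 4 to 5 lower between the lines in TRAP, 0 to 1 lower in the interaction with ST against TRAP, and 0 to 1 higher and 1 to 3 lower in that with TRAP against WCH.

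Psmb8, Psmb9, Psma8 and Psme2b rest on few reads in TRAP, and levels in cpm are shares of a library.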
